A study of Mus musculus with 50 samples.

Results

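The arrays described here are the 8 that measured whole spleen of BALB/c mice at 9 h (n = 4 arrays) and at 24 h (n = 4 arrays) after an injection of CpG oligodeoxynucleotide (ODN), chosen by the time given in the array titles, out of 34 BALB/c arrays and 50 arrays in all. The mice were female BALB/c WT animals, and both groups received 400 µg of the same equimolar mixture of CpG ODN 1555 and 1466 into the peritoneum. The series text gives 4 independent experiments for a time point, and no age of the animals is recorded in the labels. Levels of 6 arrays of untreated BALB/c spleen, and of 4 arrays each at 3 h and 72 h after the same injection, are set beside them. No untreated, vehicle or control ODN spleen was taken at 9 h or 24 h among the arrays used here, so the time of day and the handling of the mice cannot be told apart from the time after injection. Each array compared Cy5-labelled spleen RNA with a Cy3-labelled Universal Mouse Reference RNA, which is a pool from several mouse cell sources, and every level below is the log2 ratio of spleen over that reference after centring the array on its median.

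CpG ODN are short single-stranded DNAs that carry unmethylated CG dinucleotides, a feature of microbial DNA. In mice they are recognised by Toll-like receptor 9 (TLR9) in the endosomes of B cells, dendritic cells and macrophages. The receptor signals through MyD88 to NF-kB, MAP kinases and interferon regulatory factors, and the cytokines and interferons made in the first hours act on most other cells of the spleen. NF-kB induces its own inhibitors and interferon signalling induces the SOCS proteins, which act against the signals that induced them. Their part in any decline described below was not tested. The red pulp of the spleen also holds resident macrophages that clear old red cells and recycle their iron, and splenic B cells that turn into antibody-secreting cells enlarge their endoplasmic reticulum (ER).

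Both injected ODN are shown with their CG dinucleotides in capitals because these are the part that TLR9 reads. ODN 1555 has 15 bases with 2 CG dinucleotides, and ODN 1466 has 10 bases with 1.
1555: gctagaCGttagCGt
1466: tcaaCGttga

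The 8 arrays carried values for 29539 to 30544 of 36607 probes, and array medians lay between -0.0131 and 0.0186 before centring. Pairwise correlations over probes ran from 0.823 to 0.916 within the 9 h group, from 0.774 to 0.889 within the 24 h group and from 0.783 to 0.908 between the groups, so the ranges within and between groups overlapped. The spleen arrays carried the transcripts of the tissue's main cells, with a mean log2 ratio of 18 B cell genes of 2.34 to 2.63 at 9 h and 2.40 to 3.03 at 24 h. Transcripts of the pancreas, which adjoins the spleen, varied between arrays of the same group: the mean of 25 pancreas genes was 0.19, 6.76, 5.25 and 0.38 on the 9 h arrays and 2.57, 3.05, 5.19 and 0.35 on the 24 h arrays. None of the 25 pancreas genes passed the limma test or had an unadjusted p under 0.05 (0 of 25). Their SEs ran from 0.79 for Ctrb1 to 2.24 for Amy2, so the test could not show that both groups carried equal amounts. With the mean of the 25 as a covariate the comparison called 1190 genes. Of the 8 arrays, 7 carry neighbouring experiment numbers in the labels and 24 h replicate 1 lies apart. In whole spleen, fewer cells of a type and less RNA per cell cannot be told apart, and since no channel intensities were used here, how far each spot lay above background is unknown.

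Between 9 h and 24 h some inflammatory and interferon-induced genes, among them Ccl4, Il12b and Ifit1, fell. Some genes of tissue macrophages, among them Mrc1 and Slc40a1, and of the ER, among them Hsp90b1, rose. In the lists of such genes described below, most members did not pass the test. Of 15264 genes tested, 1058 (6.93%) passed an adjusted p of 0.05 in limma, with 745 (4.88%) higher and 313 (2.05%) lower at 24 h. At least 2-fold changes were reached by 168 of the higher genes and 48 of the lower genes. An unadjusted p under 0.05 in limma was reached by 3576 of the 15264 genes. The median log2 difference of all genes was 0.0441, beside a residual SD between arrays of one group of 0.298 for the median gene. The arrays of one time lay entirely above those of the other for 974 genes in the higher direction (6.38%) and 551 in the lower direction (3.61%). Of the called genes 726 were among such genes. Missing values were skipped here, so genes with fewer than 4 values at a time are included, and 14325 genes had values on all 8 arrays. How many genes passed depended on single arrays: 309 were called without 24h replicate 3, 532 without 9h replicate 4, 578 without 24h replicate 2, 663 without 9h replicate 1, and 2088 without 24h replicate 4. With 24h replicate 1 left out, which leaves the 7 neighbouring arrays, 838 genes were called. With a spread estimated from the 8 arrays alone the count was 125, of which 122 were among the 1058. None of the 1058 genes took the opposite sign in any alternative fit by gene. In the same 34-array fit, 1062 genes (6.96%) differed between 9 h and untreated spleen and 1290 (8.45%) between 24 h and untreated spleen. These comparisons share arrays with the one described here, and their values are given side by side for single genes.

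**Figure D1:**
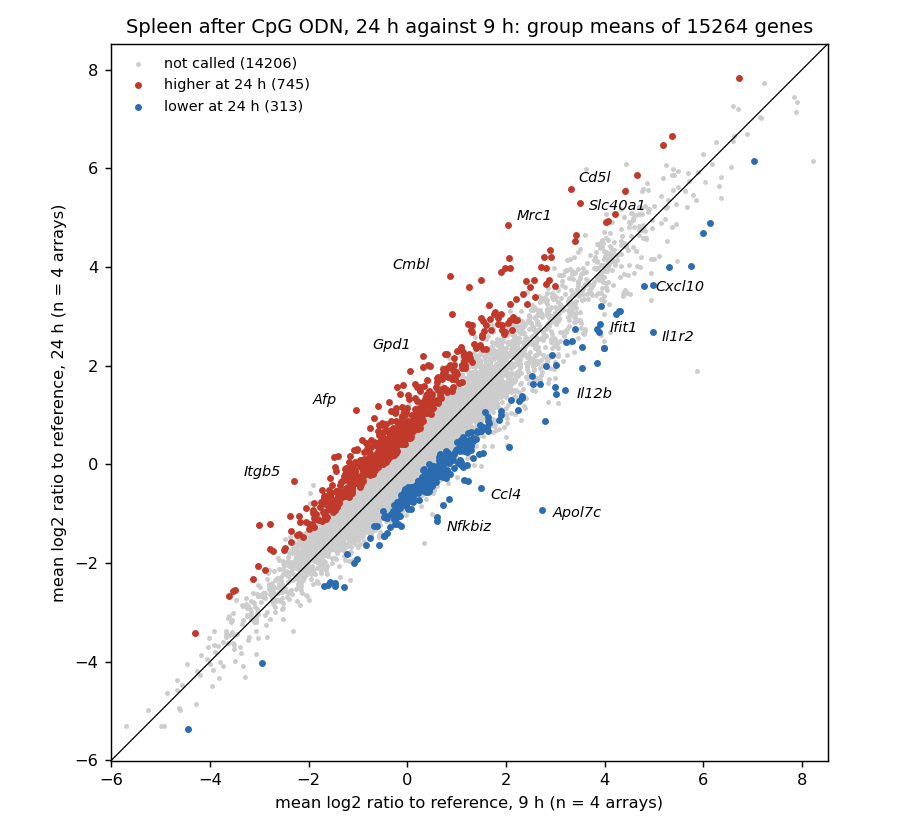
Each point is 1 of 15264 genes, with its mean log2 ratio to the reference RNA at 9 h on the horizontal axis and at 24 h on the vertical axis (n = 4 arrays each, fewer where a value is missing). Red points are the 745 genes called higher and blue points the 313 called lower at 24 h, grey points were not called, and the line marks equal levels. Apol7c lies farthest below the line among the called genes.

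Among the genes that passed the test, the largest fall belonged to Apol7c, a member of the apolipoprotein L family. It stood at 2.12, 3.66, 2.80 and 2.32 on the 4 arrays at 9 h and at -0.99, -0.47, -0.72 and -1.50 at 24 h, against -0.29, 0.17 and 0.97 as the lowest, median and highest of the 6 untreated arrays. Every 24 h array was below every 9 h array and also below the lowest untreated array. The difference was -3.64 ± 0.35 (SE) on the log2 scale, 12.5-fold, with an adjusted p of 6.27e-08. Against untreated spleen the log2 difference was 2.42 at 9 h (adjusted p = 1.31e-06) and -1.22 at 24 h (adjusted p = 0.0137). Tff2, a trefoil peptide gene of the pancreas list picked after its values were seen, had a larger difference of -3.98 ± 2.01 (SE) over 2 and 3 arrays with a value, and did not pass (adjusted p = 0.232).

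Il1r2, the decoy receptor that binds interleukin-1 without signalling, stood at 4.83, 4.44, 5.47 and 5.20 at 9 h and 2.32, 2.60, 2.75 and 3.05 at 24 h, with untreated arrays at 0.77, 1.41 and 1.77. The groups did not overlap, and all 24 h arrays remained above the highest untreated array. The fall of 2.30 ± 0.29 (SE; adjusted p = 5.59e-06) amounted to 4.93-fold. Ccl4, a chemokine that attracts T cells, NK cells and monocytes, stood at 2.05, 1.52, 1.50 and 0.90 at 9 h and -0.10, -0.48, -0.36 and -0.94 at 24 h, with untreated arrays at -1.61, -1.35 and -1.24. It too was lower on every 24 h array than on any 9 h array and still above every untreated array. The fall was 1.96 ± 0.28 (SE; adjusted p = 3.06e-05), and a further probe of the gene gave -1.64.

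Il12b, which encodes the subunit shared by the T cell-directing cytokines IL-12 and IL-23, stood at 3.62, 3.23, 2.97 and 3.01 at 9 h and, on the 3 arrays with a value, at 2.01, 1.39 and 1.11 at 24 h. Untreated arrays lay at 0.12, 0.41 and 0.76, below all arrays of both times. It fell by 1.71 ± 0.22 (SE; adjusted p = 1.47e-05). Acod1 makes itaconate, an antimicrobial metabolite of activated macrophages. Its levels were 0.93, 0.15, 1.16 and 0.15 at 9 h and -1.51, -0.81, -0.95 and -1.31 at 24 h, with untreated arrays at -2.12, -1.37 and -0.66. The 9 h arrays all lay above the 24 h arrays, which fell within the untreated range, and the difference was -1.74 ± 0.31 (SE; adjusted p = 0.000651).

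The 15 largest falls were taken among the genes that passed and whose arrays of both times did not overlap, and the others of them included enzymes, secreted proteins and adhesion molecules. The collagenase Mmp13 stood at 0.91, 1.45, 0.69 and 0.36 at 9 h and -0.39, -0.56, -1.11 and -0.75 at 24 h, and its fall of 1.55 ± 0.26 (SE; adjusted p = 0.000309) stood beside a further probe at -1.48. Lcn2, which withholds iron from bacteria by binding their siderophores, stood at 2.88, 3.42, 3.32 and 2.45 at 9 h and 0.95, 2.16, 1.73 and 0.86 at 24 h. All 24 h arrays of Lcn2 exceeded the highest untreated array at 0.60, and the fall was 1.59 ± 0.40 (SE; adjusted p = 0.0146). Slfn3, a Schlafen family gene, fell by 1.59 ± 0.33 (SE), with 3.72 over untreated spleen at 9 h and 2.13 at 24 h. The cadherin gene Cdh6 fell by 1.31 ± 0.26 (SE), with 3.35 over untreated spleen at 9 h and 2.04 at 24 h. Bcl2l14, a member of the Bcl-2 family, fell by 1.92 ± 0.28 (SE), and the cystatin gene Cst9 by 1.55 ± 0.29 (SE).

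Gch1, the first enzyme of tetrahydrobiopterin synthesis, differed from these in its untreated level. It stood at 2.00, 2.73, 1.23 and 2.27 at 9 h and -0.04, 1.08, 0.01 and 0.32 at 24 h, with untreated arrays at 1.40, 1.77 and 2.42. The 24 h arrays were all below the untreated range, whereas the 9 h arrays spanned it, the difference between the times was -1.71 ± 0.40 (SE; adjusted p = 0.00907), and a further probe gave -0.99. Among the 15 largest falls, 2 lost their call when single arrays were left out. Sys1, a Golgi trafficking gene, fell by 1.56 ± 0.49 (SE; adjusted p = 0.0463), kept its call only without 24h replicate 4, reached an adjusted p of 0.244 without 24h replicate 3, and had a further probe at -0.29. Gnat2, a transducin subunit, fell by 1.33 ± 0.38 (SE; adjusted p = 0.031) and kept its call only without 24h replicate 2, 24h replicate 4 or 9h replicate 3, with 0.17 without 24h replicate 3. The other 28 genes of both groups of 15 kept their call whichever of the 8 arrays was left out. Since all were picked by size of change and separation on these same arrays, this is no independent support for them.

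**Figure D2:**
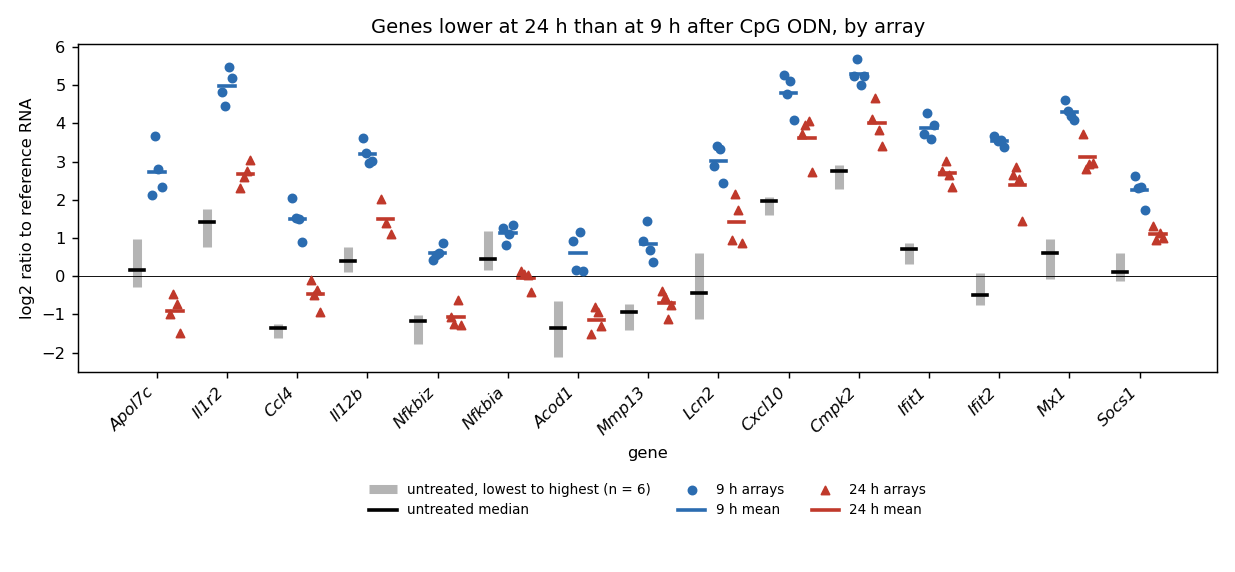
Log2 ratio to the reference RNA of 15 genes that were lower at 24 h, by array. Blue circles are the 9 h arrays and red triangles the 24 h arrays, short lines are their means, grey bars span the lowest to the highest of the 6 untreated arrays, and black lines are the untreated medians. Il12b has 3 arrays at 24 h. For Ccl4, Ifit1, Ifit2 and Mx1 the red triangles lie between the blue circles and the grey bar, and for Apol7c they lie below the grey bar.

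The interferon-stimulated genes declined in a subset. Of 39 measured, 6 fell against 2.05% over all genes, none rose, and 36 of 39 differences were negative, with a median of -0.51 against 0.0441 over all genes. The 6 were Cmpk2, Ifit1, Rnf213, Ifit2, Mx1 and Oas1g, and the first 4 of these kept their call whichever array was left out. Mx1 lost it without 24h replicate 3 (adjusted p = 0.059) and had a further probe at -0.33, and Oas1g kept it only without 24h replicate 1 or 9h replicate 4. The count of falls lay between 4 without 24h replicate 3 and 8 without 9h replicate 4. It was 10 with arrays scaled to the same spread, 11 under quantile normalization and 3 with a spread from the 8 arrays alone.

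Cmpk2, a mitochondrial nucleotide kinase of the antiviral response, stood at 5.25, 5.69, 5.01 and 5.25 at 9 h and 4.11, 4.66, 3.82 and 3.42 at 24 h, with untreated arrays at 2.28, 2.75 and 2.92. The 24 h arrays lay between the untreated and the 9 h arrays without overlap, and the fall was 1.30 ± 0.27 (SE; adjusted p = 0.00341). Ifit1, which binds viral RNA that lacks host cap methylation, stood at 3.72, 4.28, 3.60 and 3.96 at 9 h and 2.75, 3.02, 2.66 and 2.33 at 24 h, with untreated arrays at 0.31, 0.72 and 0.87. Again the 3 groups did not overlap, and Ifit1 fell by 1.20 ± 0.27 (SE; adjusted p = 0.0067). Ifit2, of the same RNA-binding family, stood at 3.68, 3.53, 3.57 and 3.39 at 9 h and 2.64, 2.87, 2.54 and 1.45 at 24 h. Its fall was 1.17 ± 0.28 (SE; adjusted p = 0.0112), with 24 h replicate 4 the lowest array. The GTPase Mx1, which blocks virus replication, fell by 1.19 ± 0.30 (SE), and the large ubiquitin ligase Rnf213 by 0.73 ± 0.18 (SE).

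All 6 were still above untreated spleen at 24 h. The log2 difference from untreated spleen was 2.61 at 9 h and 1.31 at 24 h for Cmpk2, 3.23 and 2.03 for Ifit1, 3.99 and 2.82 for Ifit2, and 3.78 and 2.58 for Mx1. Isg15, the ubiquitin-like modifier, was chosen after its values were seen; it stood at 3.46, 3.73, 2.73 and 3.26 at 9 h and 2.58, 2.47, 2.37 and 2.47 at 24 h, and its difference of -0.82 ± 0.29 (SE) did not pass (adjusted p = 0.0766). None of 15 genes from the families of interferon-inducible GTPases passed the limma test, with a median of -0.32 and differences from -0.71 to 0.64. The list was made by family, and not every member need be inducible. Of the 15, 4 had an unadjusted p under 0.05, beside 3576 of 15264 over all genes. In alternative fits, 1 GTPase was lower without 24h replicate 4 or with arrays scaled to the same spread, and 2 under quantile normalization. The mean level of the 15 ran from 3.56 to 3.96 at 9 h and from 3.41 to 3.74 at 24 h, against 1.95 to 2.23 in untreated spleen.

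Promoter stretches are shown for 6 of the fallen genes, chosen because they hold letters that interferon and NF-kB factors are known to bind. The sequences are RefSeq's, of build GRCm38.p6, each given on the gene's strand, and capitals mark matches to the interferon-stimulated response element core (GAAA, any 2 bases, GAAA) or to a kappa-B-like sequence (GGGA, any 2 bases, TTCC) on either strand, where adjoining matches may overlap. The Apol7c stretch is chr15:77533316-77533435, minus strand. The Ifit1 stretch is chr19:34640769-34640888, plus strand. Oas1g lies at chr5:120887614-120887733, Socs1 at chr16:10785537-10785656, Cxcl10 at chr5:92348990-92349109 and Nfkbia at chr12:55492648-55492767, all on the minus strand. Each ends 1 base before the annotated start, except that of Cxcl10, which lies farther upstream.
Apol7c: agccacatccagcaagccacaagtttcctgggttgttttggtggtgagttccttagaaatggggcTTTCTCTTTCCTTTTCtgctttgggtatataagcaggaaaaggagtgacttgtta
Ifit1: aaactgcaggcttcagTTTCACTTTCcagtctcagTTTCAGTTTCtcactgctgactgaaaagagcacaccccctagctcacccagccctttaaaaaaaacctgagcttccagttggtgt
Oas1g: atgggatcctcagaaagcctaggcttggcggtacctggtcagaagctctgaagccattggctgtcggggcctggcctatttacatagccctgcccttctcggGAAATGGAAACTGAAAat
Socs1: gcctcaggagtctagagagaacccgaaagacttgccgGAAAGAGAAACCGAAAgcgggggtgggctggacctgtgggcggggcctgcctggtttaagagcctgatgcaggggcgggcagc
Cxcl10: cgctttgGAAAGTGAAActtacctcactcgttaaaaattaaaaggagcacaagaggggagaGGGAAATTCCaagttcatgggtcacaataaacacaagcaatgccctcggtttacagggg
Nfkbia: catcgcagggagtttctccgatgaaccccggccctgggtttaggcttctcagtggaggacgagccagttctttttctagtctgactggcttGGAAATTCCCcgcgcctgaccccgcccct
Apol7c held 2 overlapping matches to the interferon response core between 55 and 40 bases before its start, Ifit1 held 2 separate ones from 104 and from 85 bases before it, and Oas1g and Socs1 held 2 overlapping ones each. Cxcl10 held both sequences, and Nfkbia held the kappa-B-like one from 29 to 20 bases before its start. Over the 250 bases before each start, the interferon response core was present in 2.98% of 32851 promoters and the kappa-B-like sequence in 1.21%. By gene, the interferon response core was present for 3.33% of 12120 tested genes that matched the promoter table, for 6.32% of 253 lower genes and for 2.78% of 611 higher genes. The kappa-B-like sequence was present for 1.34% of the tested genes, 1.58% of the lower genes and 1.64% of the higher genes. The interferon response core was held by 9 of 28 interferon-stimulated genes that have an entry among the RefSeq promoters, and of the 5 fallen ones among them 2 did. Of the 15 largest falls 13 have an entry, and 2 of the 13 held the interferon response core and none the kappa-B-like sequence. Il1r2, Il12b, Cmpk2, Rnf213, Socs3 and Tnfaip3 were among the fallen genes whose window held neither. A match describes the letters alone.

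Some chemokines fell. Of 32 measured, 6 were lower and 2 higher at 24 h, against 2.05% lower and 4.88% higher over all genes. The 2 that were higher were thus near the share over all genes, and the median difference of the list was -0.19. Ccl4 (above) and Ccl12 kept their call whichever array was left out, and Ccl24 did so among the 2 that were higher. The number lower was between 2 without 9h replicate 1 and 6 without 9h replicate 4, and it was 3 without 24h replicate 3. With a spread from the 8 arrays alone, 1 was lower and 1 higher.

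Ccl12, a monocyte attractant, stood at 4.65, 4.81, 4.45 and 2.08 at 9 h and 2.98, 2.00, 2.44 and 2.04 at 24 h, with untreated arrays at -1.31, -0.67 and -0.25. All arrays of both times were above the untreated ones and 9 h replicate 4 lay within the 24 h range, and the fall was 1.63 ± 0.39 (SE; adjusted p = 0.01). Cxcl10, the interferon-induced ligand of CXCR3 on activated T cells, stood at 5.26, 4.77, 5.10 and 4.08 at 9 h and 3.73, 3.97, 4.05 and 2.72 at 24 h, with untreated arrays at 1.60, 1.96 and 2.06. All 24 h arrays were below all 9 h arrays and above the untreated ones, the fall was 1.19 ± 0.31 (SE; adjusted p = 0.0188), and the call was lost without 24h replicate 4, 9h replicate 1 or 9h replicate 3. Cxcl11, another ligand of CXCR3, fell by 1.64 ± 0.41 (SE; adjusted p = 0.0135), had 9 h replicate 4 within the 24 h range, and lost its call without 24h replicate 3 or 9h replicate 1. Cxcl9, the remaining ligand of that receptor and chosen after its values were seen, stood at 7.07, 6.97, 6.35 and 5.07 at 9 h and 5.69, 5.08, 5.23 and 5.61 at 24 h and did not pass (log2 difference -0.96 ± 0.46 (SE), adjusted p = 0.201). The other 2 of the 6, also picked after their values were seen, were Ccl3, which fell by 0.85 (adjusted p = 0.045; kept only without 24h replicate 1 or 9h replicate 4), and Ccl2, which fell by 0.80 (adjusted p = 0.0476; kept only without 24h replicate 4).

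In the other direction, Ccl24, an eosinophil-attracting chemokine of tissue macrophages, stood at -1.24, -0.88, -0.82 and -0.69 at 9 h and -0.02, 0.74, 0.38 and 0.91 at 24 h, with untreated arrays at 0.58, 0.97 and 1.36. Every 9 h array lay below every untreated and every 24 h array, and the rise was 1.41 ± 0.21 (SE; adjusted p = 6.95e-05). Cxcl12, the stromal ligand of CXCR4, rose by 0.77 ± 0.24 (SE; adjusted p = 0.0444), but 3 further probes gave -0.13, -0.35 and 0.37, and the call was kept only without 24h replicate 4, 9h replicate 3 or 9h replicate 4.

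Most inflammatory cytokines did not pass the test in this interval. Of 26 cytokine and receptor genes measured, 3 were lower, namely Il1r2, Il12b and Tnfsf10, and Tgfb1 was higher, with a median of -0.18. Over all genes 2.05% were lower and 4.88% higher. Tnf, the early cytokine of macrophages, stood at 2.08, 1.84, 1.74 and 1.29 at 9 h and 1.24, 0.59, 0.96 and 0.91 at 24 h, with untreated arrays at 0.44, 0.58 and 0.75. The 4 arrays at 24 h were all below those at 9 h, and the difference of -0.81 ± 0.39 (SE) did not pass (adjusted p = 0.202). That SE rests on the spread within all BALB/c groups of the fit, not on the 9 h and 24 h arrays alone. With a spread from the 8 arrays alone Tnf was not called either. Il10, an anti-inflammatory cytokine, stood at 0.91, 0.53, 1.48 and 0.85 at 9 h and 0.57, 0.74, 0.39 and -0.19 at 24 h, and its difference of -0.56 ± 0.26 (SE) did not pass (adjusted p = 0.18). Against untreated spleen, Il10 differed by 1.83 at 9 h (adjusted p = 7.33e-07) and by 1.27 at 24 h (adjusted p = 0.00041). Il6, a driver of the acute phase response picked after its values were seen, stood at 0.62, 0.79, -0.94 and -0.12 at 9 h and -0.33, -0.32, 0.03 and -1.59 at 24 h (adjusted p = 0.299). Ifng, the macrophage-activating cytokine of NK and T cells, stood at 2.58, 2.57, 1.87 and 2.06 at 9 h and 2.58, 1.95, 2.05 and 1.45 at 24 h, with untreated arrays at 1.68, 1.88 and 2.20, and its difference was -0.26 ± 0.24 (SE; adjusted p = 0.533). Tgfb1, an immunosuppressive cytokine, rose by 0.82 ± 0.23 (SE; adjusted p = 0.0301), and Tnfsf10, the death ligand TRAIL, fell by 0.79 ± 0.25 (SE; adjusted p = 0.0487). The call of Tgfb1 was lost without 24h replicate 2, 24h replicate 3, 9h replicate 1 or 9h replicate 3, and that of Tnfsf10, whose further probe gave -0.41, was kept only without 24h replicate 1 or 9h replicate 4.

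Some of the inhibitors that NF-kB and STAT factors induce fell. Of 18 genes of the NF-kB feedback list 3 were lower and none higher, against 2.05% lower over all genes. The list had 15 negative differences and a median of -0.45. Besides inhibitors it holds NF-kB subunits such as Rela and Relb and other genes such as Icam1, so its median and mean do not describe inhibitors alone. Nfkbiz, a nuclear inhibitor-like protein that steers NF-kB to secondary response genes, stood at 0.43, 0.54, 0.59 and 0.88 at 9 h and -1.07, -1.26, -0.62 and -1.28 at 24 h, with untreated arrays at -1.78, -1.17 and -1.02. The times did not overlap, the 24 h arrays lay within the untreated range except replicate 3 above it, and the fall was 1.67 ± 0.23 (SE; adjusted p = 1.54e-05). Nfkbia, the inhibitor that holds NF-kB in the cytoplasm, stood at 1.26, 0.82, 1.11 and 1.33 at 9 h and 0.12, 0.07, 0.04 and -0.40 at 24 h, with untreated arrays at 0.15, 0.44 and 1.17. Here every 24 h array lay below the lowest untreated array, the fall was 1.17 ± 0.21 (SE; adjusted p = 0.000769), and against untreated spleen the difference was -0.65 at 24 h (adjusted p = 0.0294). Tnfaip3, a ubiquitin-editing brake on the pathway, fell by 0.86 ± 0.24 (SE; adjusted p = 0.0282), with its call lost without 24h replicate 1, 24h replicate 2, 9h replicate 3 or 9h replicate 4. The mean of the 18 genes ran from 1.11 to 1.26 at 9 h and from 0.47 to 0.89 at 24 h, against 0.640 to 0.998 in untreated spleen.

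Of 20 JAK-STAT and SOCS genes 2 were lower and none higher, against 2.05% lower over all genes. The list had 8 positive and 12 negative differences, and 1 gene was lower with a spread from the 8 arrays alone. Socs1, which blocks JAK kinases downstream of interferon receptors, stood at 2.63, 2.31, 2.33 and 1.72 at 9 h and 1.32, 0.95, 1.13 and 1.01 at 24 h, with untreated arrays at -0.12, 0.12 and 0.60. The 24 h arrays lay between the other 2 groups without overlap, and the fall was 1.15 ± 0.30 (SE; adjusted p = 0.0178). Socs3, the brake on IL-6 type signals, fell by 0.96 ± 0.26 (SE; adjusted p = 0.0229) and remained 1.18 above untreated spleen at 24 h. The calls were lost without 24h replicate 2, 24h replicate 3 or 9h replicate 1 for Socs1, and without 24h replicate 4 or 9h replicate 2 for Socs3. Of 29 immediate early genes 3 were lower, against 2.05% over all genes. They were Rgs1, a brake on chemokine receptor signals (-1.06), and the transcription factors Jun (-0.83) and Atf3 (-0.65). None of these 3 kept its call without 9h replicate 4 or 9h replicate 1, or with a spread from the 8 arrays alone.

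Tlr9, the receptor of the injected ODN, stood at 1.12, 0.66, 0.59 and 0.68 at 9 h and 0.63, 0.02, -0.17 and 0.31 at 24 h, with untreated arrays at 0.13, 0.21 and 0.55. One 24 h array, replicate 1, lay within the 9 h range, the fall was 0.56 ± 0.16 (SE; adjusted p = 0.0259), and a further probe gave -0.45. It was the only member to pass of 22 Toll-like receptor genes, beside 6.93% of all genes. Its call was lost without 24h replicate 2, 24h replicate 3 or 9h replicate 1.

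A minority of the acute phase and antimicrobial genes fell. Of 18 measured, 4 were lower and none higher, against 2.05% lower over all genes, with 16 negative differences and a median of -0.43. Besides Lcn2 these were Chil3, a chitinase-like protein of activated macrophages and granulocyte precursors (-1.43 ± 0.42, SE), Saa3, a serum amyloid made outside the liver (-0.99 ± 0.29, SE), and Orm1, an acute phase glycoprotein (-0.69 ± 0.20, SE). Chil3 kept its call only without 24h replicate 3 or 9h replicate 2, Saa3 only without 24h replicate 3 or 9h replicate 4, and Orm1 only without 24h replicate 1, 24h replicate 2 or 9h replicate 2, so the count was 1 without 9h replicate 1, and 1 also with a spread from the 8 arrays alone. Orm2, of the same family as Orm1, and the protease inhibitor Slpi, picked after their values were seen, had positive differences (0.37 and 0.34) that did not pass. Of 14 neutrophil genes Il1r2 and Lrg1 were lower. Lrg1 stood at 5.78, 7.19, 5.75 and 5.24 at 9 h and 4.95, 4.95, 4.76 and 4.12 at 24 h, with untreated arrays at 2.81, 3.10 and 3.72, and lost its call without 24h replicate 3 or 9h replicate 2. The neutrophil calcium-binding protein S100a8 stood at 6.71, 6.51, 7.02 and 5.98 at 9 h and 5.78, 6.04, 6.63 and 5.64 at 24 h and did not pass (adjusted p = 0.285). The neutrophil list mean was 3.05 to 3.91 at 9 h and 2.80 to 3.19 at 24 h, so it overlapped between the times (1.65 to 2.34 in untreated spleen), and its part in the falls of Il1r2 and Lcn2 was not tested.

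Among genes of dendritic cell maturation and costimulation, 1 of 15 passed, beside 6.93% of all genes, with a median of -0.48. With arrays scaled to the same spread 4 were lower, under quantile normalization 4 were lower and 1 higher, and with a spread from the 8 arrays alone none was called. Fscn1, the actin-bundling protein of mature dendritic cells, stood at 0.28, 0.37, -0.26 and -0.92 at 9 h and -1.26, -1.34, -1.33 and -1.09 at 24 h, and fell by 1.12 ± 0.20 (SE; adjusted p = 0.00105). The 5 untreated arrays with a value lay at -1.74, -1.42 and -1.32, overlapping the 24 h arrays and below the 9 h arrays. Ccr7, the receptor that guides mature dendritic cells and lymphocytes to T cell zones, stood at 4.06, 4.25, 4.41 and 4.80 at 9 h and 3.57, 3.96, 3.52 and 2.74 at 24 h, with a difference of -0.94 ± 0.31 (SE) that did not pass (adjusted p = 0.0624). Cd274, which encodes the inhibitory ligand PD-L1, stood at 2.50, 2.67, 2.59 and 2.33 at 9 h and 1.65, 1.97, 2.11 and 1.50 at 24 h and also did not pass (adjusted p = 0.0673). Cd86, a costimulatory ligand, differed by 0.72 ± 0.26 (SE; adjusted p = 0.082). Naaa, a lysosomal amidase of conventional dendritic cells, rose by 1.02 ± 0.22 (SE; adjusted p = 0.00436) and was -1.99 against untreated spleen at 9 h and -0.97 at 24 h.

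The genes with the largest rises included several of tissue macrophages. Mrc1, the mannose receptor that takes up glycoproteins, stood at 1.93, 1.27, 2.18 and 2.75 at 9 h and, on the 3 arrays with a value, at 4.63, 5.58 and 4.36 at 24 h, with untreated arrays at 2.75, 4.77 and 5.13. All 24 h arrays exceeded all 9 h arrays. The rise of 2.82 ± 0.43 (SE; adjusted p = 8.74e-05) was 7.07-fold, and the difference from untreated spleen was -2.33 at 9 h (adjusted p = 2.35e-05) and 0.50 at 24 h (adjusted p = 0.482).

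Slc40a1 encodes ferroportin, the iron exporter through which red pulp macrophages return iron to the blood. It stood at 3.11, 3.16, 3.79 and 3.93 at 9 h and 5.12, 5.43, 5.57 and 5.10 at 24 h, with untreated arrays at 4.82, 5.26 and 5.55. The 9 h arrays were all below the untreated arrays and the 24 h arrays lay among them or, for replicate 3, just above, the rise being 1.81 ± 0.24 (SE; adjusted p = 1.54e-05). Cd5l, a scavenger receptor family protein secreted by tissue macrophages, stood at 3.02, 3.81, 4.25 and 2.21 at 9 h and 5.21, 5.80, 6.07 and 5.23 at 24 h, with untreated arrays at 1.13, 2.78 and 3.37. In contrast to Slc40a1 its 24 h arrays all exceeded the untreated range, with a difference from untreated spleen of 2.98 (adjusted p = 1.57e-05), and the rise from 9 h was 2.25 ± 0.48 (SE; adjusted p = 0.00456). Treml4, a receptor of myeloid cells that binds dead cells, stood at 1.86, 1.80, 2.33 and 1.94 at 9 h and 4.22, 3.75, 4.26 and 3.71 at 24 h, with untreated arrays at 2.23, 2.42 and 3.08. Its 24 h arrays were above both other groups, and it rose by 2.00 ± 0.31 (SE; adjusted p = 0.000118).

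Of 18 markers of resident splenic macrophages 4 were higher and none lower at 24 h, against 4.88% higher over all genes. The median was 0.16, and the count was 3 to 5 with single arrays left out. Besides Slc40a1, Cd5l and Treml4 this was Vcam1, an adhesion molecule of red pulp macrophages and stroma, which stood at 1.86, 1.20, 2.43 and 3.33 at 9 h and 3.24, 3.41, 3.40 and 3.36 at 24 h. Its 9 h replicate 4 lay among the 24 h arrays, the rise was 1.15 ± 0.29 (SE; adjusted p = 0.0145), a further probe gave 1.11, and the call was lost without 24h replicate 3, 9h replicate 1 or 9h replicate 2. Other markers of the same cells, chosen after their values were seen, did not pass. Spic, the transcription factor of red pulp macrophages, stood at 6.07, 5.58, 5.56 and 5.68 at 9 h and 5.91, 5.58, 6.13 and 5.39 at 24 h (adjusted p = 0.963), with untreated arrays at 4.02, 4.48 and 5.13. Hmox1, which breaks down heme, differed by -0.11 ± 0.22 (SE), the marginal zone receptor Marco by 0.15 ± 0.47 (SE), and the metallophilic macrophage receptor Siglec1 by 0.15 ± 0.34 (SE). The mean of the 18 ran from 2.96 to 3.11 at 9 h and from 3.23 to 3.73 at 24 h, without overlap between the times, against 2.50 to 3.20 in untreated spleen.

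Scavenging and clearance genes showed 6 rises and 1 fall among 22 measured, against 4.88% higher and 2.05% lower over all genes. The median was 0.22, with 4 rises without 24h replicate 3 and 8 without 24h replicate 4. Besides Mrc1 and Cd5l, Lpl, the lipase that frees fatty acids from lipoproteins, stood at -0.79, -0.46, -0.50 and -0.66 at 9 h and 0.83, 0.76, 0.62 and 0.50 at 24 h, with untreated arrays at 0.64, 0.76 and 1.03. The times did not overlap, the rise was 1.28 ± 0.20 (SE; adjusted p = 0.000158), and a further probe gave 1.47. Cd68, a lysosomal glycoprotein of macrophages, stood at -0.34, -0.57, 0.88 and 0.08 at 9 h and 1.18, 1.86, 1.53 and 1.06 at 24 h, rising by 1.40 ± 0.25 (SE; adjusted p = 0.000651), with a further probe at 1.63. Msr1, a scavenger receptor for modified lipoproteins, rose by 0.99 ± 0.25 (SE) with further probes at 0.10 and 0.77, lost its call without 24h replicate 3 or 9h replicate 4, and was already 1.80 above untreated spleen at 9 h. The single fall was that of Ctsl, a lysosomal protease, at -0.98 ± 0.22 (SE; adjusted p = 0.00701), while the protease Ctsd rose by 0.58 ± 0.16 (SE), was picked after its values were seen, kept its call only without 24h replicate 1, 24h replicate 4 or 9h replicate 3, and had 14 further probes at -0.14 to 0.71. Of the macrophage genes outside these lists, the lysosomal lipase Lipa and the signalling adaptor Tyrobp were chosen after their values were seen. Lipa stood at 0.25, 0.09, 0.36 and -0.03 at 9 h and 1.73, 1.56, 1.86 and 1.37 at 24 h and rose by 1.46 ± 0.17 (SE; adjusted p = 1.47e-06). Tyrobp stood at 2.81, 3.03, 2.94 and 2.78 at 9 h and 4.16, 4.36, 5.01 and 3.90 at 24 h and rose by 1.47 ± 0.23 (SE; adjusted p = 0.000128).

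Of 19 iron and heme genes 3 were higher and 1 lower, against 4.88% higher and 2.05% lower over all genes, with a median of -0.08. Blvra, which turns the biliverdin from heme breakdown into bilirubin, stood at 1.10, 0.74, 1.24 and 0.70 at 9 h and 2.12, 2.18, 2.06 and 1.74 at 24 h, with untreated arrays at -0.14, 0.54 and 0.85, and rose by 1.08 ± 0.20 (SE; adjusted p = 0.00128). Every 24 h array exceeded every other array of the 3 groups. Aco1, an iron-sensing aconitase, rose by 0.74 ± 0.22 (SE), and Steap4, a metalloreductase, fell by 1.24 ± 0.30 (SE) with a further probe at -0.13. Aco1 kept its call only without 24h replicate 1, 24h replicate 4 or 9h replicate 2, and Steap4 lost it without 24h replicate 2 or 24h replicate 3.

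The largest rise among the genes that passed was that of Cmbl, a hydrolase also found in liver. It stood at 1.21, 1.16, 1.29 and -0.21 at 9 h and 3.67, 4.25, 4.23 and 3.10 at 24 h, with untreated arrays at 1.64, 2.03 and 2.30. The 9 h arrays lay below the untreated range and the 24 h arrays above it, with 9 h replicate 4 the lowest of all, and the rise was 2.95 ± 0.27 (SE; adjusted p = 2.53e-08), or 7.72-fold. Slc15a2, a transporter of di- and tripeptides, stood at 1.37, 0.64, 1.67 and 1.33 at 9 h and 3.37, 4.39, 3.53 and 3.10 at 24 h, with untreated arrays at 2.74, 3.12 and 3.41, and rose by 2.35 ± 0.23 (SE; adjusted p = 1.34e-07). Its 9 h arrays were all below the untreated arrays, and none of the 24 h arrays was.

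Several further genes among the 15 largest rises were low at 9 h. Itgb5 (integrin beta 5), Abcc3 (an organic anion exporter), Gpd1 (glycerol-3-phosphate dehydrogenase), Fcgrt (the neonatal Fc receptor that recycles IgG and albumin), Sort1 (the sorting receptor sortilin) and Tbxas1 (thromboxane synthase) were below untreated spleen at 9 h. Their log2 differences from untreated spleen at 9 h were -1.46, -1.80, -1.66, -1.20, -1.57 and -1.41, each with an adjusted p under 0.05. At 24 h they were 0.49, -0.01, 0.22, 0.64, 0.57 and 0.83, none of which passed. For Tbxas1 a further probe gave 0.18 between the times, and for Sort1 the 3 further probes gave 0.58, 0.99 and 1.84. Afp, the fetal serum protein alpha-fetoprotein, stood at -1.07, -0.79, -0.29 and -1.98 at 9 h and 1.19, 1.40, 0.98 and 0.86 at 24 h, with untreated arrays at -2.33, -1.59 and -0.79. All of its 24 h arrays exceeded all untreated arrays, with a rise from 9 h of 2.14 ± 0.33 (SE; adjusted p = 8.74e-05). Ckb, the brain-type creatine kinase, rose by 2.13 ± 0.30 (SE) and was 1.36 above untreated spleen at 24 h (adjusted p = 0.00125). Npl, an enzyme of sialic acid breakdown, rose by 1.88 ± 0.29 (SE) and was 1.04 above untreated spleen at 24 h (adjusted p = 0.0115).

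**Figure D3:**
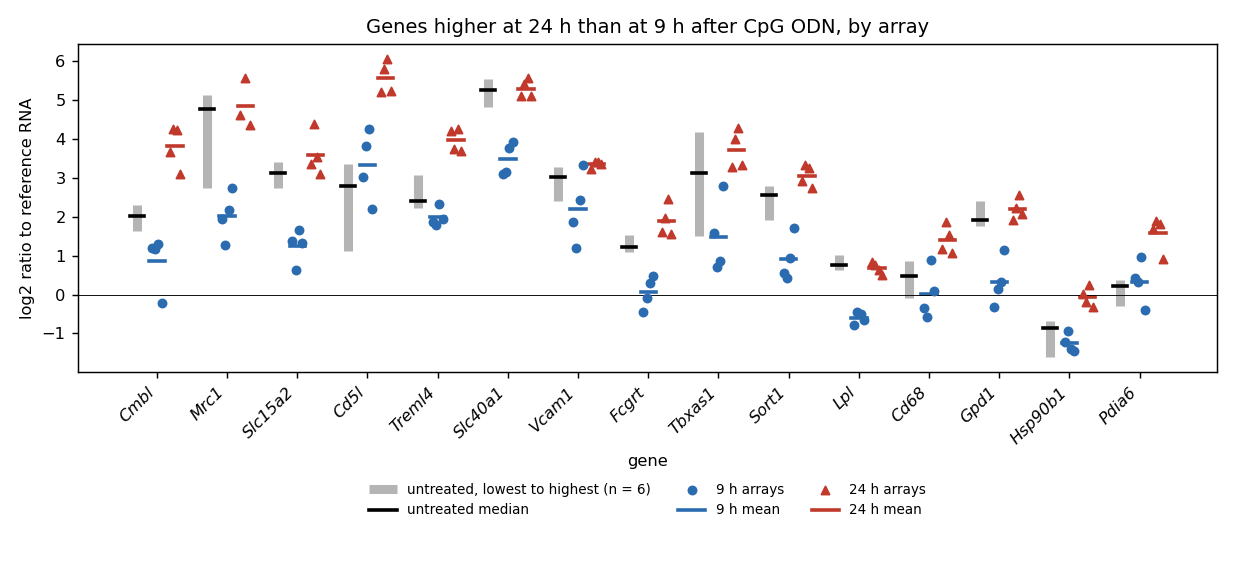
Log2 ratio to the reference RNA of 15 genes that were higher at 24 h, by array, with symbols for the 9 h arrays (blue circles), the 24 h arrays (red triangles), their means and the untreated range and median as labelled. Mrc1 has 3 arrays at 24 h. For Slc15a2, Slc40a1 and Lpl the blue circles lie below the grey untreated bar, and for Cd5l and Treml4 the red triangles lie above it.

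Part of the genes of protein folding and export through the ER rose. Of 23 measured, 8 were higher and none lower, against 4.88% higher over all genes, 20 differences were positive, and the median was 0.43 against 0.0441 over all genes. Hsp90b1, the ER chaperone GRP94, stood at -1.22, -0.93, -1.39 and -1.44 at 9 h and 0.01, -0.19, 0.26 and -0.33 at 24 h, with untreated arrays at -1.61, -0.85 and -0.69. Each 24 h array exceeded all 9 h and all untreated arrays, and the rise was 1.19 ± 0.20 (SE; adjusted p = 0.000322). Pdia6, a disulfide isomerase, stood at 0.41, 0.33, 0.97 and -0.39 at 9 h and 1.68, 1.90, 1.83 and 0.93 at 24 h, with 24 h replicate 4 just below 9 h replicate 3, and rose by 1.25 ± 0.24 (SE; adjusted p = 0.00176). Mzb1, a chaperone of antibody assembly in B and plasma cells, stood at -0.15, -0.15, -0.24 and -0.42 at 9 h and 1.01, 1.09, 1.72 and 0.43 at 24 h, with untreated arrays at 0.04, 0.27 and 0.99, and rose by 1.31 ± 0.26 (SE; adjusted p = 0.0024). Against untreated spleen, Mzb1 differed by -0.60 at 9 h and 0.71 at 24 h, neither of which passed.

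Pdia3, a disulfide isomerase that also serves MHC class I loading, rose by 0.75 ± 0.16 (SE), the lectin chaperone Canx by 0.76 ± 0.18 (SE), and the stress-inducible Creld2 by 0.81 ± 0.21 (SE). Manf (0.75) and Ssr4 (0.57), picked after their values were seen, completed the 8. Hsp90b1, Pdia6, Mzb1 and Pdia3 kept their call whichever array was left out, and the count lay between 4 without 24h replicate 3 and 9 without 24h replicate 4. With a spread from the 8 arrays alone 2 were called. The chaperone Hspa5, picked after its values were seen, did not pass (adjusted p = 0.418), and neither did Ddit3, Atf4 and Herpud1 of the ER stress response, picked likewise, at -0.52, -0.26 and -0.25. Of 11 plasma cell genes Mzb1 and Irf4 were higher, against 4.88% higher over all genes. The list had 8 positive and 3 negative differences and a median of 0.26. Irf4, a transcription factor of plasma cell development, stood at -0.84, -0.65, -0.50 and -0.80 at 9 h and 0.37, 0.28, -0.05 and -0.68 at 24 h, with replicate 4 at 24 h within the 9 h range and a call (adjusted p = 0.0476) kept only without 24h replicate 4. Tnfrsf17, the survival receptor BCMA of plasma cells, differed by 0.71 ± 0.25 (SE) and did not pass (adjusted p = 0.0825).

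Some genes of the respiratory chain and the proteasome rose. Of 25 respiratory chain genes 7 were higher and none lower, against 4.88% higher over all genes, with 22 positive differences and a median of 0.49. Atp5o, a subunit of ATP synthase, stood at -0.48, -0.20, -0.70 and -0.91 at 9 h and 0.36, 0.33, 1.12 and -0.05 at 24 h, with untreated arrays at -0.63, -0.42 and -0.19, and rose by 1.01 ± 0.23 (SE; adjusted p = 0.00708). Cox5a, a subunit of cytochrome c oxidase, stood at 0.05, 0.31, -0.21 and -0.22 at 9 h and 0.61, 0.93, 1.01 and 0.32 at 24 h, with untreated arrays at -0.57, -0.34 and -0.22, and rose by 0.73 ± 0.17 (SE; adjusted p = 0.00739). In both genes the groups of 9 h and 24 h arrays did not overlap, with replicate 4 the lowest at each time. None of the 7 kept its call without 24h replicate 3, and 12 respiratory chain genes were higher without 24h replicate 4. Of 27 constitutive proteasome genes Psmb1, Psmb2 and Psma1 were higher by 0.79, 0.60 and 0.58, with a median of 0.31, 1 rise without 24h replicate 3 and 7 without 24h replicate 4. With array weights 11 respiratory chain and 7 proteasome genes were higher, and with a spread from the 8 arrays alone none of either list was called. None of 15 glycolysis genes passed the limma test (5 had an unadjusted p under 0.05, and up to 1 passed in each alternative), with a median of -0.04. Over all genes, 3576 of 15264 had an unadjusted p under 0.05.

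No gene of the DNA replication and mitosis lists passed the test. Over all genes, 3576 of 15264 had an unadjusted p under 0.05 in limma. Of 32 DNA replication genes none was called by limma and 13 had an unadjusted p under 0.05, with 29 positive differences and a median of 0.51. Without 24h replicate 4, 4 were called higher and 1 lower, and without 9h replicate 2, 2 were higher and 1 lower. With array weights 3 were higher and 1 lower, and with arrays scaled to the same spread or with the pancreas covariate 1 was lower. Pola1, the catalytic subunit of the primase-bearing polymerase, stood at -0.46, -0.43, -0.64 and -1.07 at 9 h and 0.24, 0.53, 0.07 and -0.13 at 24 h, with a difference of 0.83 ± 0.29 (SE; adjusted p = 0.0745). Mcm5, a subunit of the replicative helicase, stood at -0.47, 0.46, -0.33 and -0.60 at 9 h and 0.25, 1.20, 0.85 and 0.48 at 24 h (adjusted p = 0.0784). None of 30 mitosis genes passed the limma test (4 had an unadjusted p under 0.05), with a median of 0.16, and Mki67, a usual marker of cycling cells picked after its values were seen, stood at 0.32, 1.06, -0.32 and 1.71 at 9 h and -0.61, -0.49, -0.41 and 0.59 at 24 h (adjusted p = 0.405). One gene of cell division outside the lists, Cep55, which acts in the final cut between daughter cells, was chosen after its values were seen. It stood at -2.57, -2.93, -3.08 and -3.42 at 9 h and -0.89, -0.81, -1.34 and -1.91 at 24 h, with untreated arrays at -3.11, -3.01 and -2.53, all 24 h arrays above all others, and rose by 1.76 ± 0.21 (SE; adjusted p = 2.25e-06).

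Among lymphocyte markers, set against 4.88% higher over all genes, 3 of 17 cytotoxic and NK cell genes were higher, namely Klre1, Gzma and Gzmm, as were 2 of 18 B cell genes and 1 of 17 T cell genes. With a spread from the 8 arrays alone none of these was called. Gzma, a granzyme of cytotoxic granules, stood at 7.27, 6.97, 7.10 and 5.53 at 9 h and 8.08, 8.20, 7.998 and 7.02 at 24 h, with untreated arrays at 5.75, 6.59 and 7.24, and rose by 1.11 ± 0.35 (SE; adjusted p = 0.0465). Gzmb, another granzyme, picked after its values were seen, stood at 5.65, 5.76, 5.71 and 4.35 at 9 h and 4.44, 5.51, 4.83 and 4.47 at 24 h and did not pass (adjusted p = 0.332), while both times lay above untreated spleen at 1.70, 2.08 and 3.01. None of the 3 rises was called without 24h replicate 1, 24h replicate 3, 9h replicate 2 or 9h replicate 4. The B cell genes were the kinase Btk (0.79) and Ly6d (0.86), and the T cell gene was Cd3d, a chain of the T cell receptor complex. Btk lost its call without 24h replicate 3 or 9h replicate 1, Ly6d kept it only without 24h replicate 4 or 9h replicate 1, and so did Cd3d. Cd3d rose by 1.12 ± 0.34 (SE), whereas Cd3e, another chain of the complex picked after its values were seen, differed by -0.01 ± 0.18 (SE).

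Erythroid genes had a median of -0.64, the lowest of the lists, with 19 of 23 differences negative and 2 called lower, against 2.05% lower over all genes. Slc4a1, the anion exchanger band 3 of red cells, stood at 6.00, 6.78, 4.55 and 5.70 at 9 h and 4.30, 4.72, 2.76 and 4.31 at 24 h, with untreated arrays at 4.84, 5.82 and 6.19. Replicate 3 was the lowest at each time and the groups overlapped; the fall of 1.74 ± 0.45 (SE; adjusted p = 0.0167) was lost without 24h replicate 3 or 9h replicate 2, and a further probe gave -0.36. Ermap, an erythroblast membrane protein, fell by 1.09 ± 0.32 (SE), and kept its call only without 24h replicate 2, 9h replicate 1 or 9h replicate 3. The number of erythroid calls was 0 without 24h replicate 3 or 9h replicate 2 and 5 without 24h replicate 2. It was 4 with arrays scaled to the same spread, under quantile normalization or with the pancreas covariate, and 0 with a spread from the 8 arrays alone. The list mean was 3.07 to 4.13 at 9 h and 2.68 to 3.37 at 24 h, against 3.50 to 4.09 in untreated spleen.

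Of 24 stromal and matrix genes Col14a1 and Tcf21 were higher and Col4a1 and Fn1 lower, so 4 of 24 passed against 6.93% over all genes. With arrays scaled to the same spread 1 was higher and 1 lower, and with a spread from the 8 arrays alone none of the stromal or endothelial genes was called. Tcf21, a transcription factor of splenic mesenchyme, stood at 4.67, 4.22, 4.04 and 4.75 at 9 h and 6.20, 6.12, 4.69 and 5.18 at 24 h, with untreated arrays at 4.83, 6.00 and 6.16, rose by 1.13 ± 0.31 (SE), lost its call without 24h replicate 1, 24h replicate 2, 9h replicate 2 or 9h replicate 3, and had a further probe at 1.18. Col4a1, a basement membrane collagen, fell by 0.90 ± 0.20 (SE; adjusted p = 0.00651) and was the only one of the 4 to keep its call whichever array was left out. Of 18 endothelial genes Tek, the receptor of angiopoietins, was higher by 1.16 ± 0.31 (SE), a call lost without 24h replicate 2, 24h replicate 3 or 9h replicate 2.

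The remaining lists had 0 to 4 called genes each, beside 6.93% of all genes. Of 20 inhibitory regulators Il1r2 and the arginase Arg2 (-1.21) were lower and Tgfb1 higher, and of 19 Bcl-2 family and apoptosis genes Bcl2a1a (-1.24) was lower. Of 18 glucocorticoid-responsive genes Il1r2, Nfkbia and Errfi1 (-1.20, further probe 0.23) were lower, with 15 negative differences. Bcl2a1a lost its call without 24h replicate 3 or 9h replicate 4, and Errfi1 kept it only without 9h replicate 1 or 9h replicate 2. Il1r2 thus counts in several lists. Of 20 monocyte and macrophage genes Cd68 and the macrophage receptor Adgre1 (0.84, further probe -0.70) were higher and Fn1 and Chil3 lower. Of 17 MHC class I genes Pdia3 was higher, and of 11 plasmacytoid dendritic cell genes Lair1 (0.96) and Ly6d were higher. Of 17 dendritic cell genes Fscn1 and the uptake receptor Ly75 (-0.65) were lower and Naaa higher. Of 13 granulocyte precursor genes Lcn2 and Chil3 were lower, of 13 basophil, mast cell and eosinophil genes the mast cell chymase Cma1 (-0.58) was lower, and of 15 fat and mesothelium genes Lpl was higher and the keratin Krt8 (-1.09, further probe 0.24) lower. Adgre1 and Lair1 lost their call without 24h replicate 3, Cma1 without 24h replicate 2, 24h replicate 3 or 9h replicate 4, Krt8 kept it only without 24h replicate 2 or 9h replicate 1, and Ly75 only without 24h replicate 1, 24h replicate 2 or 9h replicate 4. No gene passed the limma test among 13 of MHC class II (3 with an unadjusted p under 0.05), 15 of complement (2), 18 of cholesterol synthesis (1), 21 of ribosome biogenesis (4), 13 of heat shock (1) and 14 of platelets (1). Over all genes, 3576 of 15264 had an unadjusted p under 0.05. Under quantile normalization 3 Bcl-2 family genes and 4 monocyte and macrophage genes were lower, and with a spread from the 8 arrays alone 1 monocyte and macrophage gene was higher and none lower. Also under quantile normalization 3 MHC class II genes were higher, and 1 was with array weights or with a spread from the 8 arrays alone. Each of the other 5 lists had at most 1 call in any alternative.

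Of 17 circadian clock genes 2 were higher, against 4.88% over all genes. Dbp, a clock-controlled transcription factor, stood at -1.94, -2.21, -2.11 and -2.52 at 9 h and -1.005, -0.74, -0.80 and -1.61 at 24 h, with untreated arrays at -1.95, -1.78 and -1.41, and rose by 1.16 ± 0.20 (SE; adjusted p = 0.000491). Per3, a period gene, stood at -2.37, -1.95, -2.49 and -2.59 at 9 h and -1.26, -0.87, -1.27 and -1.99 at 24 h and rose by 1.00 ± 0.23 (SE; adjusted p = 0.00789). The other clock genes looked at after their values were seen did not pass: Per1 differed by -0.41 ± 0.34 (SE), Per2 by 0.07 ± 0.22 (SE), Nr1d1 by 0.04 ± 0.19 (SE) and Arntl by -0.24 ± 0.26 (SE). The hour of day at which spleens were taken was not used here, and the part of the hour in any difference was not tested.

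**Figure D4:**
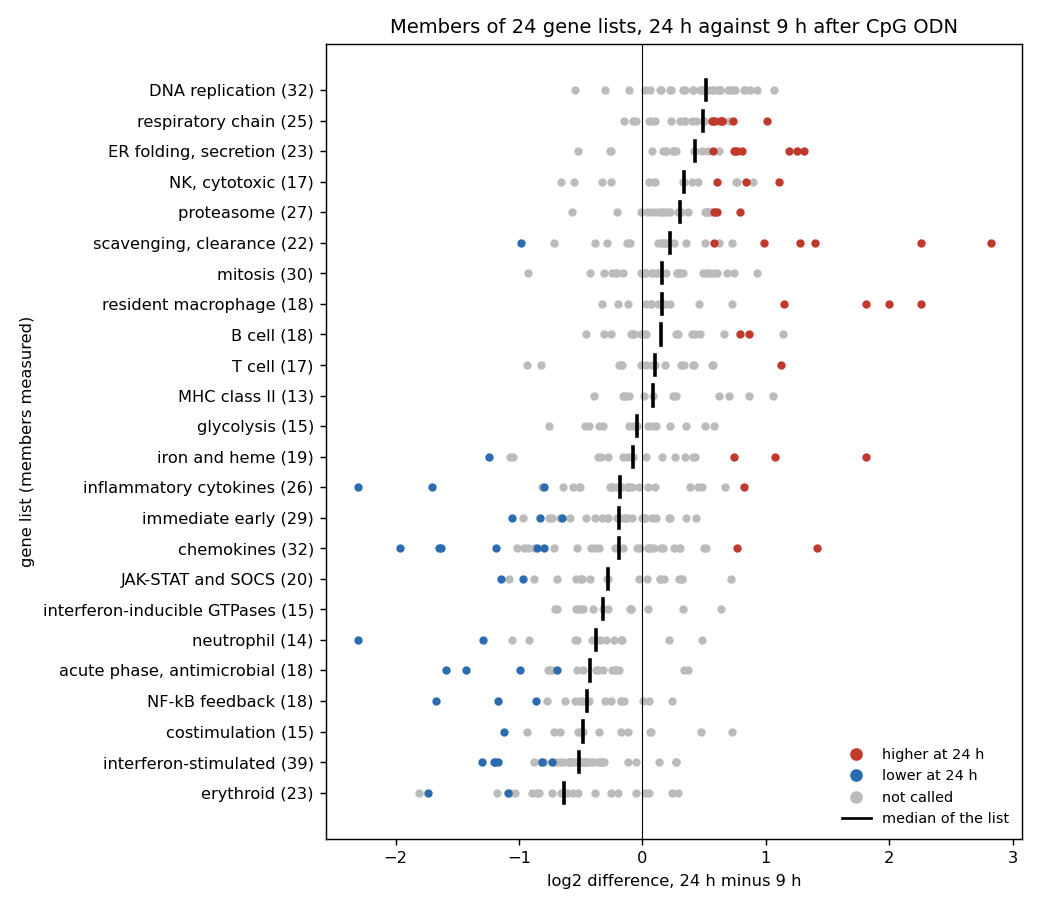
Each point is a gene placed by its log2 difference between 24 h and 9 h (horizontal axis) in the row of its list, for 24 lists ordered by median, with the number of members measured in brackets. Red points were called higher, blue points lower and grey points not called, and black bars are list medians. Erythroid (-0.64) and interferon-stimulated genes (-0.51) have the lowest medians, and DNA replication (0.51), respiratory chain (0.49) and ER folding genes (0.43) the highest.

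The course over the sampled times differed between genes. Mean levels of Ccl4 were -1.39 ± 0.16 (SD, n = 6) in untreated spleen, 3.64 ± 0.21 at 3 h, 1.49 ± 0.47 at 9 h, -0.47 ± 0.35 at 24 h and -0.34 ± 0.20 at 72 h (SD, n = 4 each). Most of its decline had thus been measured by 24 h, and it stayed above the untreated level at 72 h. Ifit1 had means of 3.79 ± 0.18 at 3 h, 3.89 ± 0.30 at 9 h, 2.69 ± 0.29 at 24 h and 2.96 ± 0.20 at 72 h (SD, n = 4 each), so the level at 9 h was that of 3 h within the spread. Ifit2, of the same family, had 2.38 ± 0.63 at 24 h and 0.91 ± 0.53 at 72 h (SD, n = 4 each).

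Among these times Slc40a1 was lowest at 3 h, with 2.58 ± 0.37, and stood at 3.50 ± 0.42 at 9 h and 5.30 ± 0.23 at 24 h (SD, n = 4 each). Mrc1, in contrast, was at 4.55 ± 0.21 at 3 h and at 2.03 ± 0.61 at 9 h (SD, n = 4 each), so its low level was seen at 9 h and not at 3 h. Cmbl was at 0.11 ± 0.32 at 3 h and at 2.95 ± 0.32 at 72 h (SD, n = 4 each), and Pdia6 at 1.58 ± 0.45 at 24 h and 0.71 ± 0.27 at 72 h (SD, n = 4 each). The differences between 3 h and 9 h and between 24 h and 72 h were not tested.

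**Figure D5:**
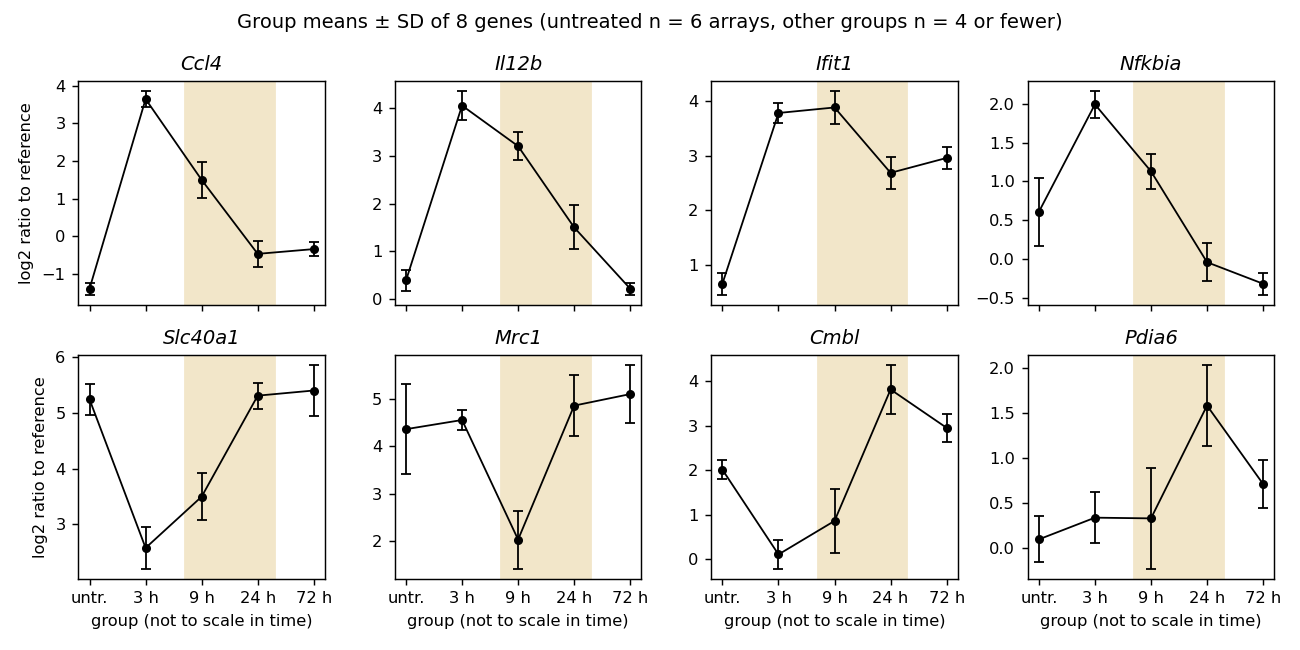
Mean log2 ratio to the reference RNA (vertical axis, different in each panel) of 8 genes in untreated spleen (n = 6 arrays) and at 3 h, 9 h, 24 h and 72 h after CpG ODN (n = 4 arrays each, but 3 for Il12b and Mrc1 at 24 h and 2 for Il12b at 72 h), with bars for the SD and the interval from 9 h to 24 h shaded. Ccl4, Il12b, Ifit1 and Nfkbia decline across the shaded interval, and Slc40a1, Mrc1, Cmbl and Pdia6 climb.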

How the data were processed

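Spleen RNA (Cy5) and a common reference RNA (Cy3) were hybridised together on each array, per the labels. The authors deposited log2 ratios which, per the series text, had been background-corrected, stripped of flagged spots and of spots that were dim in both channels, and lowess-normalised in BRB ArrayTools. Lowess removes a shift shared by all genes. Here each array was centred on its median, and probes present on over 70% of the 34 BALB/c arrays were kept, 1 per gene. Of 36607 probes 26926 had 1 gene symbol, 203 several and 9478 none, and 28 symbols were renamed. Groups were compared with limma 3.58.1 (R 4.3.3) in 1 fit over the 34 arrays, two-sided, with Benjamini-Hochberg adjustment and a threshold of 0.05, after the scripts had been tested on simulated data. Every adjusted p comes from that fit, except where an array is said to be left out. Named genes are the 15 largest rises and falls with arrays that do not overlap, up to 6 genes of smallest p per list, and Tnf, Il10, Ifng and Tlr9. The groups, lists and alternatives were chosen with earlier results of these data known. Replicates are separate experiments per the series text. No label or header names a genome build, and GRCm38.p6 tables served for names and RefSeq promoters. Fits that vary centring, scaling, filter, probe choice, weights, blocks and arrays are given in the closing section.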

Additional observations from a re-analysis of the deposited data

Results flagged for a closer look

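In 10 of 148 groups of 4 arrays examined, 1 array stood apart from the other 3 by Dixon's ratio, where chance gives about 1 in 20. For Cmbl, 9 h replicate 4 stood at -0.208, against 1.16 to 1.29 on the other 9 h arrays. Several list means were lowest on 24 h replicate 4, namely interferon-stimulated genes at 1.917 (others 2.264 to 2.324), NF-kB feedback genes at 0.47 (0.847 to 0.89), costimulation genes at 1.658 (2.087 to 2.144), Bcl-2 family genes at 0.74 (0.915 to 0.939) and neutrophil genes at 2.8 (3.13 to 3.187). At 9 h, NF-kB feedback genes were lowest on replicate 2 at 1.106 (1.26 to 1.262), complement genes on replicate 4 at 2.71 (2.837 to 2.851) and respiratory chain genes on replicate 4 at -0.575 (-0.295 to -0.238). Glucocorticoid-responsive genes were lowest on 24 h replicate 1 at -0.694 (-0.398 to -0.359).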

How the results depend on the processing

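The 1058 calls (745 higher, 313 lower) stayed within 1.5 times under other centring, scaling, presence filters, mean of probes, robust eBayes, the run of array numbers as a block and the pancreas covariate (1042 to 1205 in all). With every probe tested 1618 were called, 566 of them lower. With only the 8 arrays 125 were called, 95 higher and 30 lower. With array weights 1656 were called, 1201 higher. Requiring at least 2-fold left 216, 168 higher and 48 lower. Leaving out single arrays gave 309 to 2088 in all, 232 to 1525 higher and 77 to 563 lower. With the repeat number as a replicate block 1121 genes were called, among them 1 lower ER gene, 1 higher MHC class II gene, 1 plasma cell gene and, of the chemokines, 1 higher and 5 lower. In deviations from the group mean, same-numbered arrays correlated at 0.38, 0.015, 0.175 and 0.415, and arrays of other numbers at -0.32 to 0.257. Since the pair numbered 2 was under 0.1, the numbers were not taken as pairing, and 9 h replicate 2 correlated best with 24 h replicate 3 (0.23). All same-numbered values were positive, so whether the arrays are paired is not settled. The cause of the differences between the fits was not tested. The signal over background is unknown, no interval for counting error can be given, and 4 arrays a group limit the precision.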
